A study of Homo sapiens with 19 samples.

Results

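COL1A2, FN1, SPARC, EPCAM and PTPRC are 5 of the 58051 human genes counted in this series, and each encodes a protein that is secreted or carried on the cell surface. They were picked by symbol because earlier results of these data had shown them as low in K562 yet higher in the nuclear wash, so the values that chose them, those of the nuclear wash against the other fractions, are given below as a description with no test. K562 is an established human erythroleukaemia line with erythroid features, and these cells received no treatment. The nuclear wash, the nucleus, the cytoplasm and whole cells were each sequenced in 4 libraries after removal of rRNA. For the nuclear wash, 3 further libraries omitted that step. RNA was taken up in Trizol LS, synthetic yeast transcripts were added, and a stranded total RNA kit was used throughout. The labels do not say how the nuclear wash was prepared, nor whether the replicates of a fraction are separate cultures. The p-values therefore cover only the variation among these libraries, and that variation may be technical. The libraries are bulk samples, in which fewer cells of a type and less RNA per cell cannot be told apart.

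COL1A2 encodes a chain of type I collagen, the main fibrillar collagen of connective tissue and bone. FN1 encodes fibronectin, a matrix glycoprotein bound by integrins, and SPARC encodes a collagen-binding matrix protein also called osteonectin. EPCAM encodes a membrane glycoprotein of epithelial cells that takes part in adhesion, and PTPRC encodes CD45, the receptor tyrosine phosphatase of leukocytes. Such proteins begin with a stretch of hydrophobic residues that emerges from the ribosome first and is bound by the signal recognition particle, which brings the ribosome and its mRNA to the translocon of the endoplasmic reticulum. The membrane of that organelle is continuous with the outer membrane of the nuclear envelope.

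The starts of the coding sequences of COL1A2, FN1, SPARC and PTPRC are shown because they hold the stretch through which these mRNAs are tied to the endoplasmic reticulum during translation. They are the first 75 bases of the coding sequence of the transcript annotated as principal (the longest where several are), from the GENCODE release 29 transcripts of GRCh38, 5′ to 3′ on the coding strand. Capitals mark codons with T at their second position, which code for hydrophobic residues only (phenylalanine, leucine, isoleucine, methionine and valine).
COL1A2: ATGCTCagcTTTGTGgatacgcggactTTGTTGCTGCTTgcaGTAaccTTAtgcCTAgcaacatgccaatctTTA
FN1: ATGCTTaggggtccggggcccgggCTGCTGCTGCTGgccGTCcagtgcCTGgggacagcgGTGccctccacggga
SPARC: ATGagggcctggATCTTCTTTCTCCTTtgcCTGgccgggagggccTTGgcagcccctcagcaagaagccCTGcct
PTPRC: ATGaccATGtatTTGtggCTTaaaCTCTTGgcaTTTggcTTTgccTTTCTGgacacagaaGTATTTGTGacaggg

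Of the 25 codons shown, 12 were of this kind in COL1A2, 9 in FN1, 9 in SPARC and 13 in PTPRC, against a median of 7 over 19519 protein-coding genes. Of all those genes, 4.64% had at least as many as PTPRC, 8.58% at least as many as COL1A2 and 32.4% at least as many as FN1 and SPARC. These counts cover 4 of the 5 genes, describe the sequence only and were related to no measured value, so nothing is read from them about the 5 genes together.

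COL1A2 (ENSG00000164692) lies at chr7:94394561-94431232 on the plus strand of GRCh38, with 11156 bases of annotated exon. FN1 (ENSG00000115414) lies at chr2:215360440-215436172 on the minus strand, with 17315 bases of exon and no annotated gene overlapping it. SPARC (ENSG00000113140) lies at chr5:151661096-151687165 on the minus strand, with 4831 bases of exon. Exons of the antisense gene CLMAT3 overlap those of SPARC, and the strand setting of the counting is not given in the sources used here, so the SPARC values may include reads of that gene. EPCAM (ENSG00000119888) lies at chr2:47345158-47387601 on the plus strand, with 2519 bases of exon. PTPRC (ENSG00000081237) lies at chr1:198638457-198757476 on the plus strand, with 9168 bases of exon. Other annotated genes lie within COL1A2, EPCAM and PTPRC without overlapping their exons, which leaves only their intronic counts uncertain. All 5 genes had enough counts to be tested, also when the nuclear wash libraries were left out of the filter.

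Exon counts per library ran from 1373755 to 7955415 with rRNA depletion and from 923464 to 1801293 without it. Levels are given in CPM, exon counts scaled to a common library size (counts per 1e6) with the TMM factors of the 16 depleted libraries, a scaling that sets the typical gene to no change. Replicates 1 and 2 carry another column prefix than replicates 3 and 4. HSPA5, an endoplasmic reticulum chaperone, averaged 1311 ± 210 CPM in the nuclear wash and 317 ± 63.8 CPM in the cytoplasm (SD, n = 4 each). GAPDH, a cytosolic enzyme, averaged 137 ± 6.44 CPM in the nucleus and 1895 ± 216 CPM in the cytoplasm, and the nuclear RNA MALAT1 averaged 59704 ± 9929 CPM in the nucleus and 3164 ± 413 CPM in the cytoplasm.

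The description of all 5 genes as low in K562 held for only part of them. Per kilobase of exon, the whole-cell level of COL1A2 was 0.615 ± 0.0700 CPM, that of FN1 1.39 ± 0.212 CPM and that of SPARC 1.94 ± 0.399 CPM (SD, n = 4). Only 8.09%, 19.8% and 27.5% of 15855 tested genes with an exon length ranked below them. EPCAM reached 21.4 ± 2.23 CPM per kilobase and PTPRC 12.7 ± 2.91 CPM per kilobase in whole cells, above 88.3% and 78.5% of those genes. In the nuclear wash libraries the share of genes ranking lower was 38.5% for COL1A2, 44.6% for FN1, 65.4% for SPARC, 96.4% for EPCAM and 88.7% for PTPRC.

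COL1A2 was measured at 25.4, 34.7, 25.1 and 26.2 CPM in nuclear wash replicates 1 to 4, and at 12.6, 13.7, 8.16 and 11.4 CPM in the nucleus. The cytoplasm held 2.78, 5.44, 4.71 and 5.93 CPM, and whole cells 6.78, 7.58, 5.79 and 7.28 CPM. The order was nuclear wash, nucleus, whole cell and cytoplasm, and only the ranges of the last pair overlapped. These levels rest on few reads, with 14 to 38 exon counts per cytoplasm library and 69 to 223 per nuclear wash library.

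FN1 was measured at 37.9, 46.5, 76.3 and 63.4 CPM in the nuclear wash, and at 32.7, 36.1, 37.0 and 41.5 CPM in the nucleus. The cytoplasm held 6.55, 9.17, 18.97 and 14.1 CPM, and whole cells 23.4, 19.1, 26.0 and 27.5 CPM. The order was the same as for COL1A2, but here the nuclear wash and nucleus ranges overlapped, while the whole-cell and cytoplasm ranges did not. Replicates 3 and 4 were both above replicates 1 and 2 in each of the fractions.

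SPARC was measured at 25.4, 29.7, 45.8 and 41.7 CPM in the nuclear wash, and at 2.24, 3.09, 5.98 and 4.15 CPM in the nucleus. The cytoplasm held 9.12, 8.45, 10.4 and 10.1 CPM, and whole cells 9.42, 7.78, 12.1 and 8.19 CPM. The nucleus, second for COL1A2 and FN1, came last for SPARC, and its libraries held only 5 to 22 exon counts. The cytoplasm and whole-cell ranges overlapped, and the other groups were separate.

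EPCAM was measured at 180.3, 144.4, 147.7 and 124.8 CPM in the nuclear wash, and at 54.2, 35.7, 34.0 and 35.8 CPM in the nucleus. The cytoplasm held 48.2, 60.2, 56.3 and 66.7 CPM, and whole cells 56.9, 60.2, 49.3 and 48.9 CPM. All nuclear wash libraries stood above all others, and nucleus replicate 1 reached into the range of the cytoplasm and of whole cells.

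PTPRC was measured at 201.6, 228.0, 220.4 and 232.8 CPM in the nuclear wash, and at 150.2, 126.1, 163.2 and 159.8 CPM in the nucleus. The cytoplasm held 48.8, 60.6, 83.8 and 94.9 CPM, and whole cells 85.5, 109.9, 150.0 and 119.9 CPM. The nuclear wash was separate from the rest, and whole cells overlapped the nucleus on the upper side and the cytoplasm on the lower side.

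**Figure D1:**
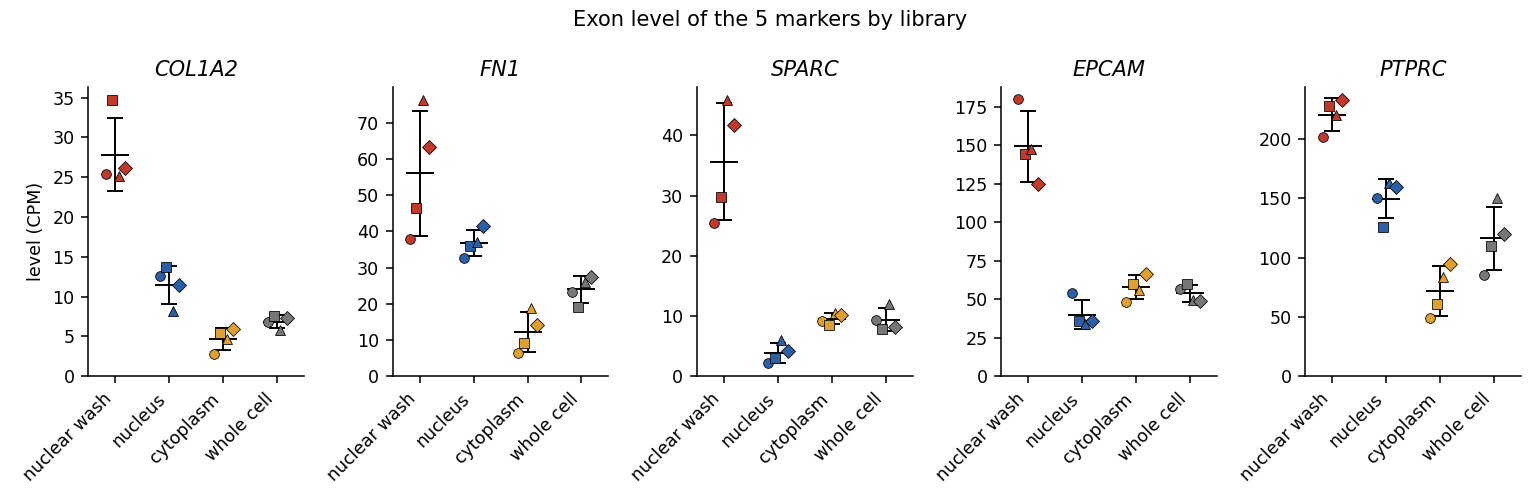
Exon level (CPM, linear axis) of each gene in the 16 depleted libraries, by fraction. Circles, squares, triangles and diamonds are replicates 1, 2, 3 and 4, and bars give the mean ± SD (n = 4). The nuclear wash is highest for all 5 genes, and the nucleus is lowest for SPARC (2.24 to 5.98 CPM) but second for PTPRC (126.1 to 163.2 CPM).

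The choice of the genes fixed the direction of the nuclear wash differences on the TMM scale, and their sizes are described here. Against the cytoplasm the log2 fold change was 2.54 for COL1A2, 2.19 for FN1, 1.91 for SPARC, 1.36 for EPCAM and 1.61 for PTPRC, with standard errors of 0.149 to 0.242. Of 15940 tested genes 44.2% were called, 22.8% higher and 21.4% lower, at an adjusted p under 0.05 in edgeR's quasi-likelihood test. Against whole cells the values were 2.03 for COL1A2, 1.23 for FN1, 1.93 for SPARC, 1.47 for EPCAM and 0.92 for PTPRC, with 34.4% of genes called, 14.6% higher and 19.7% lower. Against the nucleus they spread most, at 3.15 for SPARC, 1.91 for EPCAM, 1.30 for COL1A2, 0.62 for FN1 and 0.56 for PTPRC, with 72.1% of genes called, 36.7% higher and 35.4% lower. With library totals and no TMM factor, nuclear wash against nucleus turned to -0.07 for FN1 and -0.12 for PTPRC, while the median of all tested genes stood at -0.61.

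Within replicates 1 and 2, nuclear wash against cytoplasm gave 2.84 for COL1A2, 2.41 for FN1, 1.66 for SPARC, 1.57 for EPCAM and 1.97 for PTPRC. Within replicates 3 and 4 it gave 2.27 for COL1A2, 2.08 for FN1, 2.09 for SPARC, 1.15 for EPCAM and 1.34 for PTPRC. All 5 were positive within both pairs of replicates. Over all tested genes 290 differed between the prefixes in this contrast at an adjusted p under 0.05, and none of the 5 was among them.

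The scale of these differences depended on what the libraries were set against. With library sizes taken from the yeast spike-ins, the median log2 fold change of all tested genes was -3.10 for nuclear wash against cytoplasm, and all 5 genes were negative, at -0.58 for COL1A2, -0.98 for FN1, -1.29 for SPARC, -1.78 for EPCAM and -1.53 for PTPRC. Relative to that median COL1A2 stood 2.52 higher, FN1 2.12, SPARC 1.81, EPCAM 1.32 and PTPRC 1.58. Set against 1000 spike-in counts, COL1A2 averaged 0.637 ± 0.223 exon counts in the nuclear wash, 1.48 ± 0.225 in the nucleus, 0.938 ± 0.240 in the cytoplasm and 3.27 ± 0.530 in whole cells (SD, n = 4). PTPRC averaged 4.94 ± 0.942 exon counts per 1000 spike-in counts in the nuclear wash, 19.6 ± 3.67 in the nucleus, 14.2 ± 2.78 in the cytoplasm and 55.9 ± 15.7 in whole cells. SPARC was the exception against the nucleus, with 0.776 ± 0.123 exon counts per 1000 spike-in counts in the nuclear wash and 0.516 ± 0.255 in the nucleus. The labels do not say to how many cells or how much RNA the spike-ins were added, so these values are not amounts per cell.

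**Figure D2:**
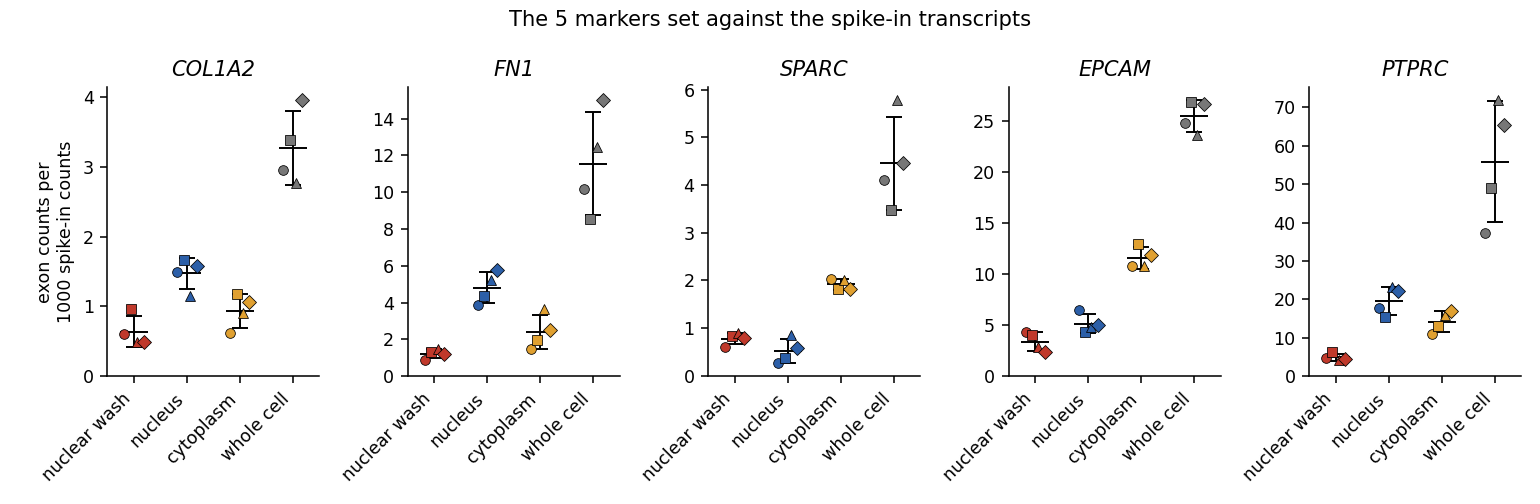
Exon counts of each gene per 1000 spike-in counts in the 16 depleted libraries (linear axes). Circles, squares, triangles and diamonds are replicates 1, 2, 3 and 4, and bars give the mean ± SD (n = 4). Whole cells are highest for all 5 genes, and the nuclear wash mean is below the cytoplasm mean in each, with 0.637 against 0.938 for COL1A2.

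The 5 genes split in the comparison of the nucleus with the cytoplasm. COL1A2, FN1 and PTPRC were higher in the nucleus, and SPARC and EPCAM were lower. All 5 were called, 3 higher and 2 lower, against 76.8% of all tested genes called, 39.3% higher and 37.5% lower, so the count is not particular to these genes. The cytoplasm libraries also served in the contrast that chose the genes. The log2 fold change was 1.58 for FN1 (SE 0.253, adjusted p = 8.69e-06), 1.24 for COL1A2 (SE 0.229, adjusted p = 4.91e-05) and 1.05 for PTPRC (SE 0.180, adjusted p = 1.94e-05) by edgeR's quasi-likelihood test. For these genes the lowest nucleus library was above the highest cytoplasm library. The log2 fold change was -1.24 for SPARC (SE 0.280, adjusted p = 0.000424), whose nucleus libraries all stood below those of the cytoplasm.

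EPCAM had a log2 fold change of -0.54 in the nucleus against the cytoplasm (SE 0.158, adjusted p = 0.0037, edgeR). With library totals and no TMM factor it turned to 0.07 (adjusted p = 0.68) and SPARC was at -0.62 (adjusted p = 0.0588), while the median of all tested genes stood at 0.64. Within replicates 1 and 2 EPCAM was at -0.30 (adjusted p = 0.192), and within replicates 3 and 4 at -0.82 (adjusted p = 3.85e-05). For the others the values within replicates 1 and 2 and within replicates 3 and 4 were 1.62 and 0.83 for COL1A2, 2.10 and 1.24 for FN1, -1.68 and -0.95 for SPARC, and 1.32 and 0.86 for PTPRC. No gene among the 5 differed between the prefixes at an adjusted p under 0.05.

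The nucleus against whole cells compares libraries that also served in the nuclear wash contrasts that chose the genes, within the same fit of 16 libraries. The direction was as above for each gene, and 4 of 5 were called, 2 higher and 2 lower, against 54.9% of all tested genes, 25.9% higher and 29.0% lower. SPARC was at -1.22 (SE 0.287, adjusted p = 0.00134), and its call held in all 16 fits that left out 1 library. COL1A2 was at 0.73 (SE 0.229, adjusted p = 0.0112), FN1 at 0.61 (SE 0.246, adjusted p = 0.0405) and EPCAM at -0.44 (SE 0.160, adjusted p = 0.0261). PTPRC at 0.36 missed the threshold (SE 0.178, adjusted p = 0.0934, edgeR). With the replicate number as a block it was called at 0.38 (adjusted p = 0.0149), and it was also called without whole-cell replicate 3, at 0.49 (adjusted p = 0.0351).

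Several of these calls were close to the threshold. COL1A2 lost its call without nucleus replicate 2, at 0.61 (adjusted p = 0.0525), and it was at 0.85 (adjusted p = 0.0375) within replicates 1 and 2 and at 0.51 (adjusted p = 0.161) within replicates 3 and 4. EPCAM lost its call without nucleus replicate 2, 3 or 4 or whole-cell replicate 2, at -0.37 to -0.40 with adjusted p of 0.0596 to 0.0854. FN1 lost its call in 8 of 16 fits, those without nucleus replicate 2, 3 or 4, without any of the whole-cell replicates, or without cytoplasm replicate 4, at 0.49 to 0.66 with adjusted p of 0.051 to 0.127. Within replicates 1 and 2, and within replicates 3 and 4, FN1 was called at 0.71 and 0.51. With spike-in library sizes COL1A2, FN1 and PTPRC turned to -1.15, -1.26 and -1.51, beside a median of -1.83 over all tested genes.

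The cytoplasm against whole cells also compares libraries that served in the nuclear wash contrasts that chose the genes. In it FN1 was lower at -0.96 (SE 0.250, adjusted p = 0.00328) and PTPRC at -0.70 (SE 0.178, adjusted p = 0.00301), by edgeR's quasi-likelihood test. COL1A2 at -0.51 missed the threshold (SE 0.228, adjusted p = 0.0673) and was called with the replicate number as a block, at -0.51 (adjusted p = 0.0373). It was also called without cytoplasm replicate 4, without whole-cell replicate 3 or without nucleus replicate 3, with adjusted p of 0.0439 to 0.0494. EPCAM at 0.11 (SE 0.151, adjusted p = 0.578) and SPARC at 0.02 (SE 0.224, adjusted p = 0.96) were not called, and both turned negative with spike-in library sizes, at -1.14 and -1.23 beside a median of -1.24 over all tested genes. Thus 2 of 5 were called, both lower, against 50.0% of all tested genes, 22.3% higher and 27.6% lower. FN1 was at -1.39 within replicates 1 and 2 and at -0.73 within replicates 3 and 4, and PTPRC at -0.84 and -0.64.

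**Figure D3:**
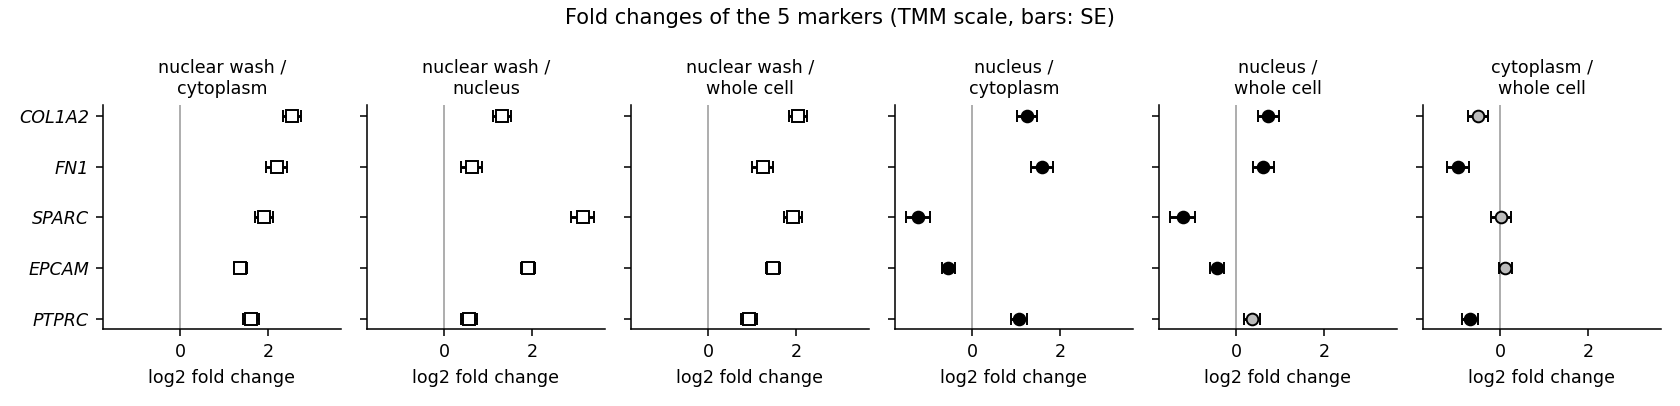
Log2 fold changes of the 5 genes in 6 contrasts of the depleted libraries, with bars for the standard error. Open squares belong to the nuclear wash contrasts that chose the genes and carry no test, black circles were called at an adjusted p under 0.05 and grey circles were not. COL1A2, FN1 and PTPRC lie right of 0 and SPARC and EPCAM left of 0 in the nucleus against the cytoplasm and against whole cells.

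The genes were not picked for their intronic reads. The intronic share is the gene-body count minus the exon count, as a percentage of the gene-body count. Its denominator thus holds the exon counts of libraries that served in the contrasts that chose the genes. In the nucleus it was 70.7, 74.0, 67.2 and 67.5% for PTPRC, against 13.4, 11.1, 8.51 and 9.12% in the cytoplasm and 55.1, 55.8, 51.4 and 45.6% in whole cells. For EPCAM it was 25.3, 40.9, 32.4 and 30.3% in the nucleus, against 5.81, 4.33, 4.01 and 2.51% in the cytoplasm and 12.2, 13.0, 15.8 and 10.4% in whole cells. For both genes all nucleus libraries stood above all libraries of the other fractions.

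COL1A2 had intronic shares of 53.3, 58.8, 49.2 and 42.1% in the nucleus, against 26.3, 5, 15.8 and 0% in the cytoplasm. The 0 came from cytoplasm replicate 4, where 0 of 38 gene-body counts allow a share of up to 7.89%. SPARC had shares of 66.7, 47.1, 26.7 and 38.5% in the nucleus, against 2.13, 3.28, 0 and 0% in the cytoplasm. The nuclear shares of SPARC rest on 13 to 30 gene-body counts per library, and the 95% Wilson interval of the highest runs from 41.7 to 84.8%. In the cytoplasm 0 of 71 and 0 of 65 gene-body counts allow up to 4.23% and 4.62%, and these intervals and limits cover counting error only. FN1 had shares of 45.5, 41.0, 26.9 and 32.2% in the nucleus, against 29.8, 13.5, 7.19 and 8.16% in the cytoplasm. For FN1 alone the nucleus and cytoplasm ranges overlapped, through cytoplasm replicate 1.

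The mean difference of the nucleus minus the cytoplasm was 59.3 percentage points for PTPRC, 43.4 for SPARC, 39.1 for COL1A2 and 28.1 for EPCAM (exact two-sided permutation test, p = 0.0286 and adjusted p = 0.0408 each, over 10 tests). That p is the smallest that 4 against 4 libraries allow. For FN1 the difference of 21.7 points gave p = 0.0571 (adjusted p = 0.0714, exact permutation test), and without cytoplasm replicate 1 it was 26.8 points (adjusted p = 0.0357). Against whole cells the difference was 37.8 points for SPARC, 19.4 for EPCAM and 17.9 for PTPRC (adjusted p = 0.0408 each, exact permutation test). COL1A2 with 14.6 points (adjusted p = 0.0952) and FN1 with 12.1 points (adjusted p = 0.114) missed the threshold in that exact test, and COL1A2 passed without nucleus replicate 4, at 17.5 points (adjusted p = 0.0357). The call of SPARC against whole cells was lost without any 1 of the 4 whole-cell libraries at 36.3 to 40.2 points (adjusted p = 0.0635 to 0.0714, exact permutation test). Paired by replicate number, the share was higher in the nucleus in 4 of 4 pairs for each of the 5 genes, against the cytoplasm and against whole cells alike. A higher nuclear share is not particular to these genes. The median share over genes was 61.6% in the nucleus, 10.4% in the cytoplasm and 39.0% in whole cells. For FN1 the paired differences ran from 15.7 to 27.5 points against the cytoplasm and from 0.660 to 25.01 points against whole cells. An exact paired test over 4 pairs cannot give a two-sided p below 0.125.

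In the nuclear wash the mean intronic share was 12.3 ± 1.36% for PTPRC, 5.08 ± 2.23% for FN1, 3.58 ± 1.02% for COL1A2, 3.09 ± 0.600% for EPCAM and 1.56 ± 1.59% for SPARC (SD, n = 4). The median share over genes was 23.5% in the nuclear wash (14567 genes), 61.6% in the nucleus (14556), 10.4% in the cytoplasm (14558) and 39.0% in whole cells (14577). Each of the 5 was thus below the median gene in the nuclear wash, and in the nucleus only PTPRC, at 69.9 ± 3.21%, was above it. Where genes overlap, exon and gene-body counts can differ in which reads they hold, so a share may be too low or too high. HBG1, which overlaps another gene, had 655 exon counts but only 7 gene-body counts in cytoplasm replicate 1. The part of such overlaps in the shares of SPARC, EPCAM, COL1A2 and PTPRC was not tested.

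**Figure D4:**
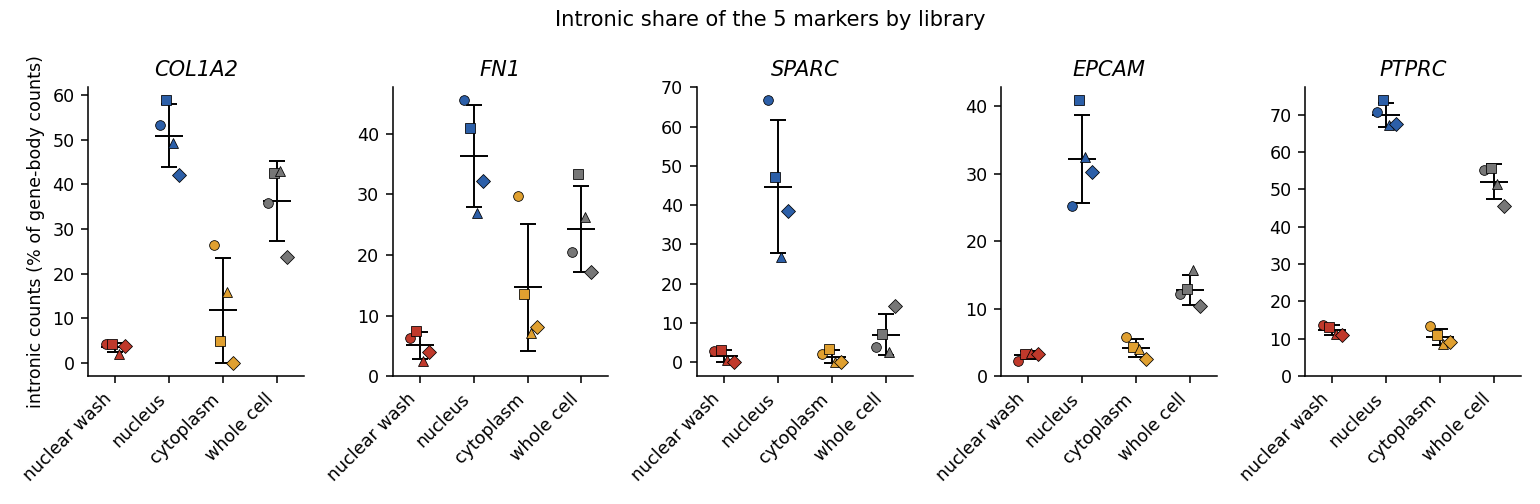
Intronic share (% of gene-body counts) of each gene in the 16 depleted libraries. Circles, squares, triangles and diamonds are replicates 1, 2, 3 and 4, and bars give the mean ± SD (n = 4), cut at 0. The nucleus is highest for each gene on average, with 69.9% for PTPRC and 32.2% for EPCAM, and nuclear wash means run from 1.56 to 12.3%.

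The nuclear wash libraries made without rRNA removal are set here against depleted libraries that chose the genes, a choice that can favour lower values in the undepleted ones. By the start of their column names (1B, 2B and 2C), undepleted replicates 1, 2 and 3 match depleted replicates 2, 3 and 4, so they may come from the same washes and are not taken as further biological replicates. On a scale of the 7 wash libraries alone, PTPRC was measured at 110.0, 112.8 and 118.9 CPM in the undepleted libraries, against 149.1, 163.9, 155.6 and 168.1 CPM in the depleted ones. The groups were separate, with a log2 fold change of -0.48 that just missed the threshold (SE 0.147, unadjusted p = 0.00681, adjusted p = 0.0562, edgeR), and DESeq2 called it (adjusted p = 0.0169). EPCAM was measured at 141.7, 110.0 and 105.8 CPM in the undepleted libraries, against 133.3, 103.8, 104.2 and 90.1 CPM in the depleted ones. SPARC was measured at 5.67, 19.3 and 20.7 CPM in the undepleted libraries, against 18.8, 21.4, 32.4 and 30.1 CPM in the depleted ones, and its lowest value rests on 5 exon counts.

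COL1A2 was measured at 14.7, 21.4 and 32.7 CPM in the undepleted libraries, against 18.8, 24.9, 17.8 and 18.9 CPM in the depleted ones. FN1 was measured at 35.2, 53.6 and 50.2 CPM in the undepleted libraries, against 28.0, 33.4, 53.9 and 45.8 CPM in the depleted ones. For COL1A2, FN1, SPARC and EPCAM the ranges overlapped, with log2 fold changes of 0.18, 0.21, -0.72 and 0.14 and adjusted p of 0.198 to 0.686 (edgeR). None of the 5 was called by edgeR's quasi-likelihood test without a block, against 11.1% of 11627 tested genes, 7.75% higher and 3.35% lower, and only PTPRC had an unadjusted p under 0.05. Within the matched pairs PTPRC and SPARC were lower in 3 of 3 undepleted libraries, EPCAM was higher in 3 of 3, and COL1A2 and FN1 were higher in 2 of 3. With the column-name match as a block, an alternative chosen after seeing the data, edgeR called PTPRC at -0.51 (SE 0.111, adjusted p = 0.000299) and SPARC at -0.87 (SE 0.225, adjusted p = 0.00219). EPCAM at 0.25 (adjusted p = 0.0944), COL1A2 at 0.18 (adjusted p = 0.598) and FN1 at 0.06 (adjusted p = 0.815) were not called in that fit. Thus 2 of 5 were called with the block, both lower, against 32.5% of all tested genes, 16.7% higher and 15.8% lower.

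With library totals and no TMM factor both PTPRC (-0.99) and SPARC (-1.26) were called, beside a median of -0.56 over all tested genes. In that setting 3999 of 11627 tested genes were called, and only 10.03% of those were higher, so lower calls are not particular to these genes.

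Other genes of the same lineages were sorted into lists by whether the protein is secreted or on the surface, or intracellular. In the nuclear wash against the cytoplasm, 26 of 32 tested secreted or surface genes were called higher and 0 lower, out of 96 in the lists, with a median log2 fold change of 1.37. Of 41 tested intracellular genes of those lineages, out of 72, 8 were called higher and 10 lower, with a median of 0.09, beside 0.05 over all tested genes. Over all tested genes 22.8% were called higher and 21.4% lower. Of the 28 secreted or surface genes that passed the count filter without the wash libraries, 22 were called higher and 0 lower. With spike-in library sizes 0 of the 32 secreted or surface genes were higher and 30 lower, with a median of -1.77, and all 41 intracellular genes were lower, with a median of -3.09, beside -3.10 over all tested genes. With library totals and no TMM factor the counts were 24 higher and 0 lower for the secreted or surface genes, and 4 higher and 12 lower for the intracellular ones.

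Of the mesenchymal and matrix genes that are secreted or on the surface, 7 of 9 tested were called higher, with a median of 1.63. Among those that passed the count filter without the wash libraries it was 5 of 7. THBS1, which encodes a matrix glycoprotein, averaged 8.97 ± 1.82 CPM in the nuclear wash and 1.09 ± 0.322 CPM in the cytoplasm (SD, n = 4 each). The adhesion molecule gene MCAM averaged 226 ± 17.9 CPM in the nuclear wash and 66.3 ± 6.16 CPM in the cytoplasm, a log2 fold change of 1.77 (adjusted p = 1.92e-10, edgeR). Of the epithelial surface genes 7 of 9 tested were called higher, with a median of 1.49, and 6 of the 8 that passed the filter without the wash libraries. DSG2, a cadherin of desmosomes, averaged 610.0 ± 49.3 CPM in the nuclear wash and 189 ± 8.48 CPM in the cytoplasm, and the adhesion molecule gene F11R had a log2 fold change of 1.69 (adjusted p = 1.16e-06, edgeR).

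Of the leukocyte surface genes 12 of 14 tested were called higher, with a median of 1.21, and 11 of the 13 that passed the filter without the wash libraries. SPN, a sialoglycoprotein of leukocytes, averaged 745 ± 40.1 CPM in the nuclear wash and 209 ± 19.9 CPM in the cytoplasm, and the Fc receptor gene FCGR2A had a log2 fold change of 1.52 (adjusted p = 2.49e-06, edgeR). The intracellular lists were mixed. CNN2, an actin-binding protein, was lower at -0.83 and the transcription factor ZEB2 was higher at 0.43, with 1 of 12 tested mesenchymal genes higher and 5 lower. PKP3, of the desmosomal plaque, was lower at -0.94 and CTNND1, a catenin, was higher at 0.48, with 4 of 10 tested epithelial genes higher and 1 lower. ARHGDIB was lower at -0.68 and the actin-bundling protein LCP1 was higher at 1.30, with 3 of 19 tested leukocyte genes higher and 4 lower.

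The machinery that folds and modifies collagen and other matrix proteins, and the receptors and partners of the 5 proteins, were also counted. Of the processing genes 17 of 19 tested were called higher in the nuclear wash than in the cytoplasm and 0 lower, with a median of 1.20. Among those that passed the filter without the wash libraries it was 16 of 18. The disulfide isomerase PDIA4 averaged 614 ± 60.2 CPM in the nuclear wash and 154 ± 13.6 CPM in the cytoplasm, and the chaperone HSP90B1 2186 ± 595 CPM in the nuclear wash and 583 ± 50.04 CPM in the cytoplasm. Of the receptors and partners 15 of 21 tested were called higher and 0 lower, with a median of 1.23. Among those that passed the filter without the wash libraries 14 of 20 were higher. NCSTN, a subunit of the gamma-secretase that cleaves EPCAM, had a log2 fold change of 1.93 (adjusted p = 4.9e-06, edgeR), and the platelet integrin chain ITGA2B one of 1.92 (adjusted p = 9.27e-05, edgeR). Of 20 genes of erythroid identity 4 were called higher and 9 lower, with a median of -0.38, and those that were higher included the surface protein TFRC, the transferrin receptor, at 1.37. The globin gene HBG1, whose reads may be split with its near-identical copy HBG2, at -1.01 and the transcription factor gene GATA1 at -0.42 were lower. A red cell surface protein gene was also among those that were lower. All of these values are on the TMM scale. Of the genes named here, THBS1, MCAM, DSG2, F11R, SPN, FCGR2A, ZEB2, CNN2, CTNND1, HSP90B1 and NCSTN share exon sequence with another annotated gene. The same holds for HBG1, HBG2, GAPDH, MALAT1, MUC1, PDGFRA, CDH1 and GRHL2, and it makes the values of all these genes uncertain.

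**Figure D5:**
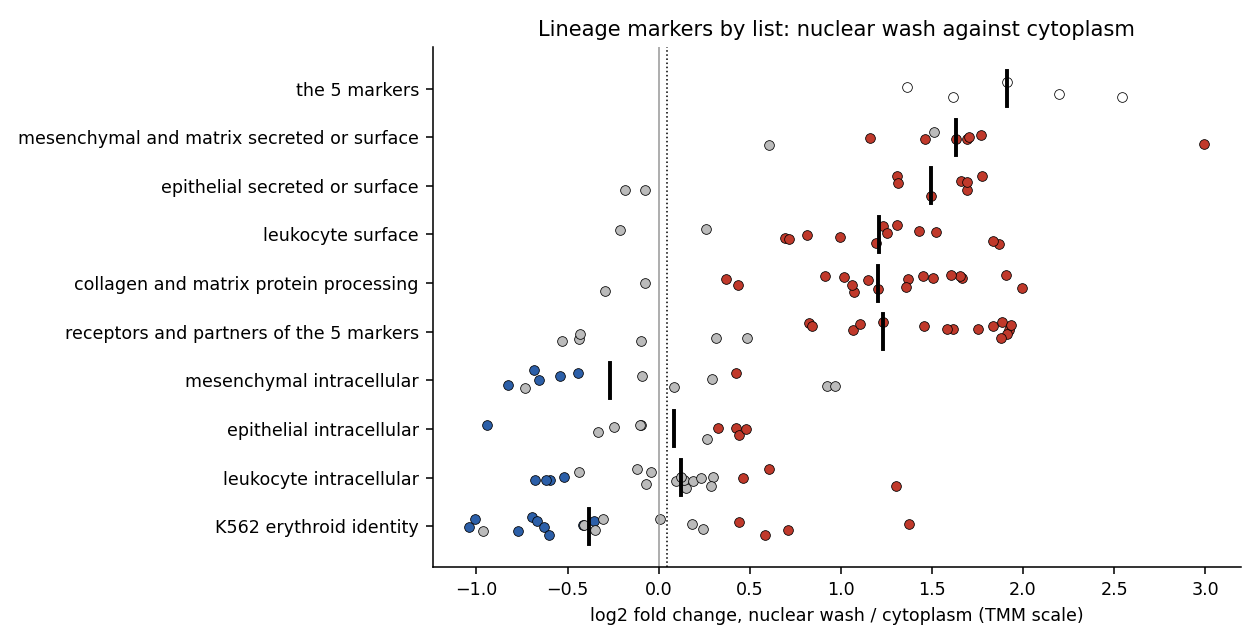
Log2 fold change in the nuclear wash against the cytoplasm (TMM scale) of the tested genes in each list. Red points were called higher, blue lower and grey neither, open points are the 5 genes, which carry no test, black bars are list medians and the dotted line is the median of all tested genes. The medians of the secreted or surface lists are 1.63, 1.49 and 1.21, and those of the intracellular lists of the same lineages -0.27, 0.09 and 0.12.

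Markers that define fibroblasts, endothelium, epithelium or leukocytes were mostly at or near 0 counts. Summed over the 4 libraries of a fraction, COL1A1, the partner chain of COL1A2 in type I collagen, had 34 exon counts in the nuclear wash, 4 in the nucleus, 9 in the cytoplasm and 10 in whole cells. Per 1e6 exon counts of the fraction these were 1.45 in the nuclear wash, 0.493 in the nucleus, 0.309 in the cytoplasm and 0.557 in whole cells. LUM and CDH5 had 0 counts in all 16 libraries, and DCN, POSTN, PDGFRA, PDGFRB, CDH1, KRT5, GRHL2, MS4A1, CD14 and ITGAM had 0 to 4 counts in each fraction. Others were well detected, and per 1e6 exon counts the keratin gene KRT19 had 73.0 nuclear wash counts and 90.9 cytoplasm counts. By the same measure MUC1 had 11.2 nuclear wash counts and 4.74 cytoplasm counts, and CD3D had 7.12 nuclear wash counts and 4.67 cytoplasm counts. The summed level of the mesenchymal and matrix surface list was 379 to 435 CPM in nuclear wash libraries and 129 to 148 CPM in cytoplasm libraries. That of the epithelial surface list was 815 to 1054 CPM in nuclear wash libraries and 294 to 335 CPM in cytoplasm libraries. That of the leukocyte surface list was 985 to 1134 CPM in nuclear wash libraries and 290.0 to 399 CPM in cytoplasm libraries. A single gene makes up most of each sum, since MCAM averaged 226 CPM, DSG2 610.0 CPM and SPN 745 CPM in the nuclear wash, and these values are uncertain from overlapping exons. The part of RNA from other cells in the levels of the 5 genes was not tested.

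Over the 16 depleted libraries, the 5 genes resembled each other to different degrees. The Pearson correlation of log2 CPM was 0.94 between FN1 and PTPRC, 0.88 between COL1A2 and PTPRC, 0.86 between COL1A2 and FN1 and 0.86 between SPARC and EPCAM. It was 0.36 between FN1 and SPARC. The points are libraries of 4 fractions that share their depth and preparation, and the values describe the pattern over fractions and carry no test. By the same measure the tested genes most like EPCAM were SSR1 (0.98), STT3B (0.98) and CANX (0.97). Those most like COL1A2 were ALDH18A1, LIMA1 and IARS2 (0.96 to 0.97), and those most like FN1 included KIAA0319L and AFDN (0.96). SPARC was most like KDM5B, SCD and PTTG1IP (0.97), and PTPRC most like ANTXR2, ADAM9 and NPC1 (0.94 to 0.96).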

How the data were processed

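The authors deposited raw read counts per gene, over exons and over whole gene bodies, with no normalization, for 19 libraries in 5 groups. Per the submitters' processing notes the build was hg38 and the tools were featureCounts 1.6.2, STAR 2.7.0a and cutadapt 2.5. For annotation release, strand setting and treatment of shared reads, the sources used here give nothing. GENCODE release 29 on GRCh38 matched 57447 of 58051 identifiers. The 11 spike-in transcripts entered neither library sizes nor tests. The labels mention no molecular identifiers, so PCR copies are counted. Every count column matched a library, and 0 were left unused.

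Exon counts went into edgeR 4.0.16 (R 4.3.3) and its quasi-likelihood test, with TMM factors, filterByExpr and Benjamini-Hochberg adjustment over all tested genes (15940 in the fit of the 16 depleted libraries, 11627 in that of the 7 nuclear wash libraries). Calls use an adjusted p under 0.05. Standard errors are absolute log2 fold changes over the square root of F. The scripts were tested on simulated data. Intronic shares were compared by exact permutation tests, with scipy intervals. Alternatives were DESeq2 1.42.0, library totals without TMM factors, spike-in library sizes, no filter, gene-body counts, other sets of libraries, a replicate block, and, for the nuclear wash libraries, a block by column name. Depleted libraries with the same replicate number share the start of their column names, but the labels state no pairing. They deviated together from their group means in each contrast (r = 0.104 to 0.379 over genes). In 13 of 24 cases, however, a library of another number gave a higher r. The main fits and the permutation tests used no pairing. No pair of replicates agreed within sampling noise (lowest chi-square per degree of freedom 1.19).

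The 5 genes, the 9 lists of 237 other genes and the tests were chosen with earlier results of these data known. List genes are named by a rule that takes, per list, the 2 called genes with the largest rise and the 1 with the largest fall at a mean of at least 5 CPM, with HSPA5, GAPDH, MALAT1, TFRC, GATA1 and HBG1 as landmarks and the 3 closest genes by correlation. COL1A1, KRT19, MUC1 and the other defining markers are shown whatever their values, and text gives part of the named genes only. Codon counts replaced a planned description of protein sequences, which were not used here; they, the joined lists, the lists filtered without wash libraries, the paired intronic differences and the block by column name were added after seeing the data. The coding start of EPCAM and a few named genes are not reported here.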

Additional observations from a re-analysis of the deposited data

Results flagged for a closer look

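Among 40 groups of 4 libraries (levels and intronic shares of the 5 genes in the depleted fractions), 3 held a library far from the other 3 of its group. Chance flags about 1 in 20 such groups. COL1A2 stood at 34.7 CPM in nuclear wash replicate 2, against 25.1 to 26.2 CPM in the other nuclear wash libraries, and without that library its log2 fold change in the nuclear wash against the cytoplasm was 2.41. EPCAM stood at 54.2 CPM in nucleus replicate 1, against 34.0 to 35.8 CPM in the other nucleus libraries. Without that library EPCAM had a log2 fold change of -0.70 in the nucleus against the cytoplasm and of -0.62 against whole cells, and both remained called. The intronic share of EPCAM was 2.20% in nuclear wash replicate 1, against 3.33 to 3.50% in the other nuclear wash libraries.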

How the results depend on the processing

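With library totals and no TMM factor, nuclear wash against nucleus was 0.64 for COL1A2, -0.067 for FN1, 2.46 for SPARC, 1.24 for EPCAM and -0.12 for PTPRC on the log2 scale, and nuclear wash against whole cell 1.16 for EPCAM and 0.61 for PTPRC. The same setting gave 0.068 for EPCAM and -0.62 for SPARC in the nucleus against the cytoplasm, -0.072 for EPCAM and 0.73 for PTPRC in the nucleus against whole cells, -0.76 for COL1A2 in the cytoplasm against whole cells, and -0.99 for PTPRC and -1.26 for SPARC in undepleted against depleted nuclear wash. It moved the share of called genes that were higher to 69.5% (TMM 51.2%) in the nucleus against the cytoplasm, to 70.4% (TMM 47.2%) in the nucleus against whole cells, to 19.7% (TMM 44.7%) in the cytoplasm against whole cells, to 25.4% (TMM 50.9%) in nuclear wash against nucleus, to 15.7% (TMM 42.6%) in nuclear wash against whole cells and to 10.03% (TMM 69.8%) in undepleted against depleted nuclear wash, where 3999 genes were called against 1290 with TMM.

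With spike-in library sizes, nuclear wash against cytoplasm was -0.58 for COL1A2, -0.98 for FN1, -1.29 for SPARC, -1.78 for EPCAM and -1.53 for PTPRC. Nuclear wash against nucleus was -1.20 for COL1A2, -1.97 for FN1, 0.57 for SPARC, -0.61 for EPCAM and -1.99 for PTPRC. Nuclear wash against whole cell was -2.35 for COL1A2, -3.23 for FN1, -2.52 for SPARC, -2.92 for EPCAM and -3.50 for PTPRC. The nucleus against whole cells gave -1.15 for COL1A2, -1.26 for FN1 and -1.51 for PTPRC, and the cytoplasm against whole cells -1.78 for COL1A2, -1.14 for EPCAM and -1.23 for SPARC. Genes called numbered 14869 against 7053 with TMM in nuclear wash against cytoplasm, 15940 against 5477 in nuclear wash against whole cell, 13771 against 8755 in the nucleus against whole cells and 14700 against 7963 in the cytoplasm against whole cells. Of the called genes 0.0202%, 0%, 0% and 0% were higher in these contrasts, 0.127% in nuclear wash against nucleus and 34.7% in the nucleus against the cytoplasm.

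With gene-body counts, nuclear wash against cytoplasm was 2.08 for COL1A2, 1.72 for FN1, 0.99 for EPCAM and 1.29 for PTPRC, nuclear wash against nucleus 1.16 for FN1, 3.52 for SPARC, 2.53 for EPCAM and 0.15 for PTPRC, and nuclear wash against whole cell 2.33 for SPARC, 1.80 for EPCAM and 0.54 for PTPRC. The nucleus against whole cells gave 0.48 for COL1A2 and 0.22 for FN1, neither called. The cytoplasm against whole cells gave -0.34 for FN1, not called, and 0.78 for SPARC and 0.81 for EPCAM, both called, among 12049 called genes. With no filter on low counts, EPCAM was at 2.13 in nuclear wash against nucleus, COL1A2 at 0.57 in the nucleus against whole cells and SPARC at -0.84 in undepleted against depleted nuclear wash, where 1987 genes were called. With DESeq2, the nucleus against whole cells gave -0.28 for EPCAM, not called, and 0.52 for PTPRC, called, with 57.3% of called genes higher, and PTPRC was called at -0.47 in undepleted against depleted nuclear wash. Without mitochondrially encoded and rRNA genes in the library sizes, EPCAM lost its call in the nucleus against whole cells at -0.30 and PTPRC was called at 0.49. PTPRC was also called there at 0.43 with only the libraries of these groups.

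With the replicate number as a block, PTPRC was called in the nucleus against whole cells at 0.38 and COL1A2 in the cytoplasm against whole cells at -0.51, and it changed no other call of the 5 genes in the 16 depleted libraries. With a block by column name in undepleted against depleted nuclear wash, PTPRC was called at -0.51 and SPARC at -0.87, among 3778 called genes. Within replicates 1 and 2, EPCAM was at -0.30 in the nucleus against the cytoplasm and at -0.41 in the nucleus against whole cells, neither called, PTPRC was called at 0.48 in the nucleus against whole cells and stood at 1.97 in nuclear wash against cytoplasm, and 3485 genes were called in nuclear wash against whole cell. Within replicates 3 and 4, COL1A2 was at 0.51 in the nucleus against whole cells, not called. The difference in intronic share of SPARC between the nucleus and whole cells was 51.4 points within replicates 1 and 2 and 24.2 points within replicates 3 and 4.

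Leaving out each library in turn gave, in the nucleus against whole cells, 0.61 to 0.88 for COL1A2, 0.49 to 0.66 for FN1, -0.62 to -0.37 for EPCAM and 0.22 to 0.49 for PTPRC. It gave -0.62 to -0.37 for COL1A2 in the cytoplasm against whole cells, and -0.51 to -0.45 for PTPRC in undepleted against depleted nuclear wash, where 459 to 1492 genes were called, the lowest counts (459 and 468) without undepleted replicate 3 or 2 and 768 and 799 without depleted replicate 2 or 3. Differences in intronic share ran from 18.7 to 26.8 points for FN1 in the nucleus against the cytoplasm, and from 10.4 to 17.5 points for COL1A2 and 30.4 to 43.8 points for SPARC in the nucleus against whole cells. The causes of these changes were not tested. SPARC in the nucleus (5 to 22 exon counts) and COL1A2 in the cytoplasm (14 to 38) are limited by depth.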

Other observations

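In the nuclear wash against whole cells, 17 of the 32 tested secreted or surface genes of other lineages were called higher and 2 lower (edgeR, TMM scale), with a median log2 fold change of 1.03. Of the 28 that passed the count filter without the wash libraries, 15 were higher and 2 lower. Of the 41 tested intracellular genes 12 were higher and 4 lower, with a median of 0.22, beside -0.10 over all tested genes, of which 14.6% were called higher. By list, 5 of 9 mesenchymal, 6 of 9 epithelial and 6 of 14 leukocyte surface genes were higher, with medians of 1.19, 1.06 and 0.58. Among the 13 leukocyte surface genes that passed the filter without the wash libraries the median was 0.17. In the intracellular lists 2 of 12 mesenchymal, 8 of 10 epithelial and 2 of 19 leukocyte genes were higher, with medians of 0.01, 0.46 and 0.19. The share called higher thus did not separate the epithelial lists. In the nucleus against the cytoplasm, 12 of the 32 secreted or surface genes were called higher and 6 lower, with a median of 0.24, and 6 of the 41 intracellular genes were higher and 21 lower, with a median of -0.54, beside 39.3% higher and 37.5% lower over all tested genes. The intracellular genes of epithelium were 0 higher and 8 lower of 10 tested in the nucleus against the cytoplasm. With library totals and no TMM factor the nucleus against the cytoplasm had 22 higher and 5 lower of the 32 secreted or surface genes, and 16 higher and 16 lower of the 41 intracellular ones, beside 8536 higher and 3738 lower of 15940 tested genes and a median of 0.64 over them. With spike-in library sizes this contrast had 9 higher and 13 lower of the secreted or surface genes (median -0.37). Of the intracellular ones 3 were higher and 30 lower (median -1.17), beside -0.60 over all tested genes. With gene-body counts 11 of 39 tested secreted or surface genes were higher and 19 lower (median -0.40). Of 42 tested intracellular genes 10 were higher and 21 lower (median -0.28), beside 0.03 over all tested genes. The direction for the surface genes thus varied.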
